A study of Mus musculus with 4 samples.

Results

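Genes for chaperones and proteases of mitochondria were examined in brown adipose tissue (BAT) of Tg mice. In these mice the integrated stress response (ISR) can be switched on by a ligand. The members were 10 genes of the 20145 named on the array, listed by symbol and taken through the accession of each probe: the chaperones Hspd1, Hspe1, Hspa9 and Trap1, and the proteases and protease subunits Lonp1, Clpp, Clpx, Yme1l1, Afg3l2 and Oma1. They were measured by 12 probes, since Hspe1 had 3 probes and the others 1 each. On all 4 arrays every member probe was well above background, and all 10 genes entered the comparison.

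The study activated Fv2E-PERK, a chimera of the eIF2α kinase domain of PERK that dimerizes upon binding the artificial ligand AP20187 (AP), and asked which genes follow in adipose tissue. All 4 mice were male mAP2-Fv2E-PERK Tg mice of the C57/BL6N strain at 8 weeks of age, so the vehicle-treated mice carried the transgene as well, and no array of WT mice was used here. The aP2 (Fabp4) promoter drove the transgene, and this promoter is also known to be active in macrophages. BAT was taken 12 h after an intraperitoneal injection of AP in 2 mice, or of a vehicle of ethanol, PEG-400 and Tween-20 in water in the other 2. The labels give the dose of AP as 1 ng/g, whereas a legend of the study gives another dose. Total RNA of each sample was hybridized to its own one-color array, and the replicate numbers of the labels do not pair the mice.

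Most mitochondrial proteins are made in the cytosol and enter the matrix unfolded. There HSPA9 (mortalin) pulls them in and holds them, HSPD1 (HSP60) with its lid HSPE1 (HSP10) folds them in a closed chamber, and TRAP1 is the HSP90 of the matrix. Proteins that fail to fold are degraded by LONP1 and by CLPP with its unfoldase CLPX, while YME1L1, AFG3L2 and OMA1 work in the inner membrane. Nuclear genes of these proteins can be induced when mitochondrial proteostasis fails, through ATF4, ATF5 and DDIT3 (CHOP), and the first of these is also the main effector of the ISR. Brown adipocytes are packed with mitochondria, in which UCP1 uncouples respiration to make heat.

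Hspd1 and Hspe1 lie head to head on chromosome 1 and are known to share a bidirectional promoter, and their sequence is shown because they are the only adjacent members and because Hspe1 had the largest difference between the groups. The windows, from 250 bases before to 50 bases after a RefSeq transcription start, are of GRCm38.p6. The window of Hspe1 is chr1:55087898-55088197 on the plus strand, and that of Hspd1 is chr1:55087883-55088182 on the minus strand. Capitals mark joined matches to TTCNNGAA and GAANNTTC, both of which are units of the heat shock element that HSF1 binds.
Hspe1: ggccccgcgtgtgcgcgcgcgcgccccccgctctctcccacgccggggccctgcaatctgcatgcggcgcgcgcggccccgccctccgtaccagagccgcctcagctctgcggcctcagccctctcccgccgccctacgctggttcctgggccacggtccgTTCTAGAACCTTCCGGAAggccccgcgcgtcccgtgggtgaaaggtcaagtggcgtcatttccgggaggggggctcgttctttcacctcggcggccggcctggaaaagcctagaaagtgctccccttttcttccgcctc
Hspd1: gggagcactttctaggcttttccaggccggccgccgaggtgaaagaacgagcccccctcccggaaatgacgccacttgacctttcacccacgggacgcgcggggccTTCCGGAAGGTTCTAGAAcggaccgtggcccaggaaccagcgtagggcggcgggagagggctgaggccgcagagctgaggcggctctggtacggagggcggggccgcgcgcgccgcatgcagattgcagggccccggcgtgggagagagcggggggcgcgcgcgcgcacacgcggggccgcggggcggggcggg
The windows share 285 bases, and the capitals are the same 18 bases read on opposite strands, at 55088059 to 55088076, starting 89 bases before the Hspe1 start and 144 bases before the Hspd1 start. A second Hspd1 window held no match. Searching both strands, 3 of the 9 windows that the table held for 8 members (those of Clpp, Hspd1 and Hspe1) had GAANNTTC or TTCNNGAA, as did 15.1% of all 32851 windows and 2 of 25 windows of partner genes. The matches of Hspd1 and Hspe1 are the same bases and so are not separate sites. TGATGNAA, the core of the C/EBP-ATF response element, was in 0 of the 9 windows, in 0 of 25 windows of partner genes, and in 3.97% of all windows. These matches describe letters in the windows and do not show binding.

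Signals are given on the log2 scale relative to the 75th percentile of each array, so that a level can be compared between mice but not between genes. A member was called when its limma p, adjusted by the Benjamini-Hochberg method over 24972 probes, was under 0.05. None of the 10 members was called, which is also true of all probes (0%). Their adjusted p values ranged from 0.81 to 0.93 with limma. At an unadjusted limma p under 0.05 there were also 0 of 10 members, against 6.07% of all probes. Both AP values exceeded both vehicle values for 2 of 10 members, Hspa9 and Clpx, against 18.0% of all probes. They were below both for 0 of 10, against 20.4%. The 95% confidence intervals of all 10 log2 fold changes held 0, and with 2 mice per group the exact two-sided permutation test cannot give a p below 0.333. The intervals were wide: the highest bound was 4.15-fold for Hspe1 and the lowest was 0.491-fold for Afg3l2. Changes within the interval of a gene remain compatible with its values. The bounds are not limits of detection, since no probe was called at any size of change.

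**Figure D1:**
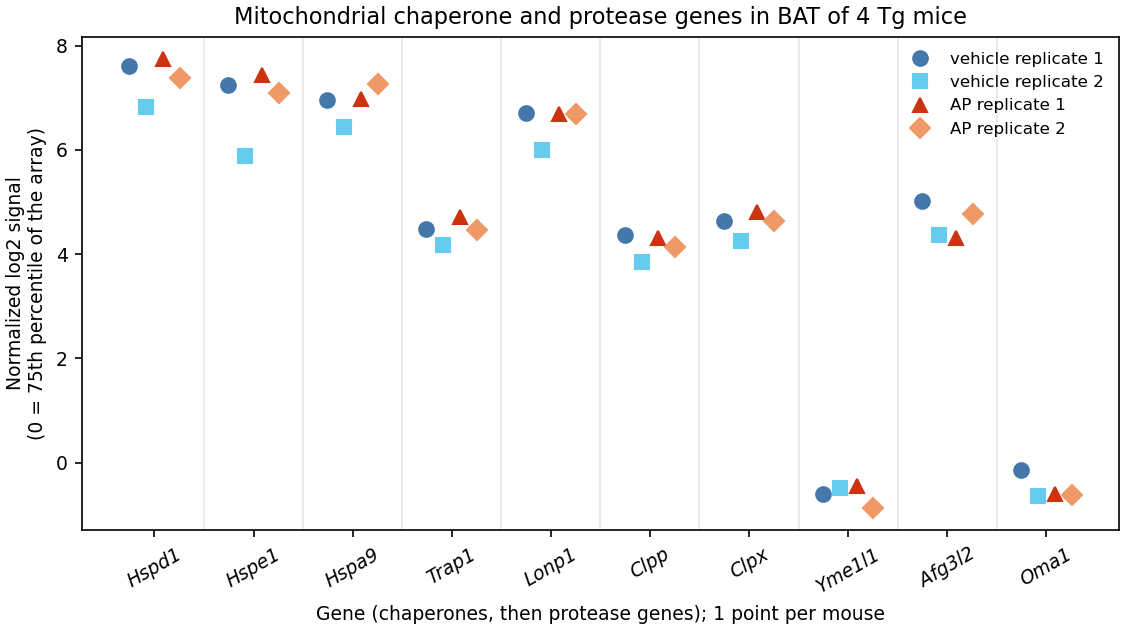
Normalized log2 signal of the 10 members in BAT of each mouse (y axis, 0 is the 75th percentile of the array; 1 point per mouse, 2 vehicle-treated and 2 AP-treated; x axis, genes). Vehicle replicate 2 was the lowest mouse for 8 of 10 genes, whereas vehicle replicate 1 lay near the AP-treated mice. Heights of different genes are not comparable because each comes from its own probe.

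The chaperones had positive differences, each smaller than the spread within the vehicle group. For Hspd1 (probe A_55_P1955587), the chamber subunit, the vehicle pair had log2 signals of 7.61 and 6.82 (replicates 1 and 2, here and throughout) and the AP pair 7.74 and 7.37. Vehicle replicate 1 lay between the AP-treated mice, and only vehicle replicate 2 was lower. The log2 fold change was 0.34 ± 0.35 (SE, n = 2 mice per group) with a 95% interval of -0.59 to 1.27. Hspe1, which caps that chamber, had the largest difference of the members. With its brightest probe (A_66_P124952), it was 7.25 and 5.87 with the vehicle and 7.44 and 7.09 with AP. The groups overlapped again, with the low value of vehicle replicate 2 standing apart from the other mice. The log2 fold change was 0.71 ± 0.51 (SE), or 1.63-fold, with a 95% interval of -0.64 to 2.05 and an adjusted limma p of 0.82. Both other probes of Hspe1 had the same order of the mice. Probe A_55_P2089358 was 6.68 and 5.46 with the vehicle and 7.08 and 6.64 with AP, and probe A_55_P1953063 was 4.51 and 3.21 with the vehicle and 4.69 and 4.26 with AP. Hence the low value of vehicle replicate 2 did not come from a single probe. Probe sequences were not used here, and cross-hybridization with Hspe1 pseudogenes was not tested.

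Hspa9 (probe A_51_P265869), the motor of protein import, was 6.96 and 6.43 with the vehicle and 6.98 and 7.27 with AP. The groups did not overlap, but AP replicate 1 was above vehicle replicate 1 by only 0.01. The log2 fold change was 0.43 ± 0.28 (SE), with a 95% interval of -0.32 to 1.18 and an adjusted limma p of 0.81, the lowest of the members. Trap1 (probe A_51_P402435) was 4.48 and 4.18 with the vehicle and 4.72 and 4.47 with AP. Its groups overlapped because AP replicate 2 and vehicle replicate 1 were nearly equal, and the log2 fold change was 0.26 ± 0.24 (SE).

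The proteases were mixed in sign. Lonp1 (probe A_55_P1971298), the main soluble protease of the matrix, was 6.71 and 6.00 with the vehicle and 6.70 and 6.68 with AP. Vehicle replicate 1 and both AP-treated mice were thus nearly equal and vehicle replicate 2 was lower, for a log2 fold change of 0.34 ± 0.31 (SE). Clpp (probe A_66_P134739), the proteolytic barrel, was 4.36 and 3.86 with the vehicle and 4.31 and 4.14 with AP, and Clpx (probe A_51_P304683), its unfoldase, was 4.63 and 4.26 with the vehicle and 4.82 and 4.64 with AP. Both had their lowest value in vehicle replicate 2. The log2 fold change was 0.12 ± 0.26 (SE) for Clpp, whose groups overlapped, and 0.29 ± 0.24 (SE) for Clpx, whose groups were separated by 0.02.

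The inner membrane proteases had small negative differences. Yme1l1 (probe A_52_P175304), the i-AAA protease, was -0.59 and -0.48 with the vehicle and -0.45 and -0.87 with AP, and this was the single member for which the vehicle-treated mice were closer to each other than the AP-treated mice were. Afg3l2 (probe A_55_P1955975), a subunit of the m-AAA protease, was 5.02 and 4.36 with the vehicle and 4.31 and 4.77 with AP, so that each group held a high and a low mouse. Oma1 (probe A_51_P511800), the stress-activated protease that cleaves OPA1 and DELE1, was -0.14 and -0.64 with the vehicle and -0.60 and -0.63 with AP. Here vehicle replicate 1 was the high mouse and the others were alike. The log2 fold changes were -0.12 ± 0.24 for Yme1l1, -0.15 ± 0.33 for Afg3l2 and -0.22 ± 0.26 (SE) for Oma1, and their upper 95% bounds were 0.52, 0.73 and 0.46.

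**Figure D2:**
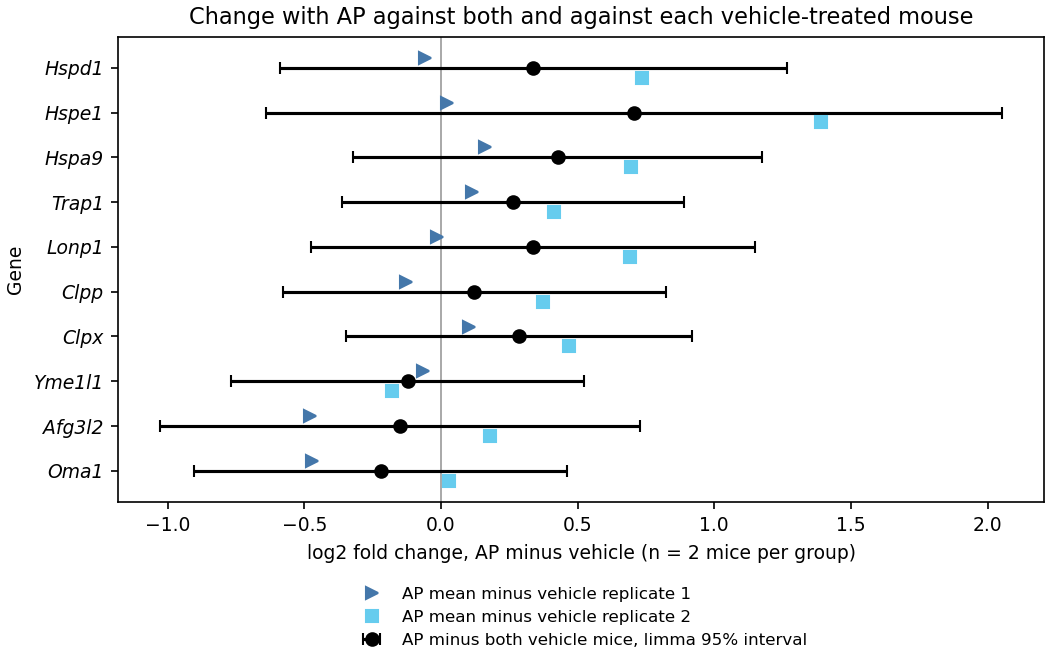
Log2 fold change of each member with AP (x axis; y axis, genes). Black points with bars are the limma estimate and its 95% confidence interval against both vehicle-treated mice, and colored points set the mean of the AP-treated mice against vehicle replicate 1 (triangles) or 2 (squares). All 10 intervals cross 0, and 9 of 10 squares but 4 of 10 triangles lie above 0.

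Most of the positive differences rested on vehicle replicate 2. This mouse was the lowest of the 4 for 8 of 10 members, against 33.3% of all probes, with Yme1l1 and Afg3l2 as the exceptions. Its array also had the highest 75th percentile signal, the value subtracted: 119 and 159 with the vehicle and 128 and 118 with AP. This count of lowest values was not repeated with other scalings. The vehicle-treated mice were farther apart than the AP-treated mice for 9 of 10 members, and for 9 of 10 the difference between the groups was smaller than that between the vehicle-treated mice. The share of all probes was not computed for either count, so neither can be read as particular to the members. The median log2 fold change was 0.27 over the members, 0.38 over the chaperones and 0.00 over the proteases, against -0.01 over all probes. In the log2 table of the authors, where the median of all probes was -0.17, it was 0.11, 0.22 and -0.16 in the same order. Compared with vehicle replicate 1 alone, 4 of 10 members were higher in the AP-treated mice, with a median of -0.04 and a range from -0.48 for Afg3l2 to 0.16 for Hspa9, and over all probes 44.1% were higher with a median of -0.05. Compared with vehicle replicate 2 alone, 9 of 10 were higher, with a median of 0.44 and a range from -0.18 for Yme1l1 to 1.39 for Hspe1, and over all probes 53.3% were higher with a median of 0.04. For Hspe1 the log2 fold change came to 0.02 once vehicle replicate 2 was left out, and to 1.39 with it as the single vehicle-treated mouse.

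The AP-treated mice were also unequal. Of the members, 8 of 10 were higher in AP replicate 1 than in AP replicate 2, against 48.7% of all probes, and Hspa9 and Afg3l2 had the other order. Among these 8 the AP-treated mice differed by as little as 0.01 for Lonp1 and 0.03 for Oma1, and by at most 0.42, for Yme1l1. Trib3, an ATF4 target that served as the check of the treatment, was 2.78 and 2.33 with the vehicle and 6.26 and 8.01 with AP, with a log2 fold change of 4.57 ± 0.63 (SE) and an adjusted limma p of 0.80. Trib3 was thus higher in AP replicate 2, by 1.75, the mouse in which most members were lower. A relation between Trib3 and the members was not tested.

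Of the 5 regulators, 4 were higher in AP replicate 2 than in AP replicate 1, as was Trib3. Atf4 was 7.49 and 6.12 with the vehicle and 7.26 and 8.23 with AP, and Atf5, the mammalian counterpart of a worm regulator of the mitochondrial unfolded protein response, was 8.01 and 7.72 with the vehicle and 8.03 and 9.11 with AP. For both genes AP replicate 2 was high and AP replicate 1 was close to vehicle replicate 1, which it exceeded for Atf5 but not for Atf4. Ddit3 was 2.18 and 1.86 with the vehicle and 3.03 and 4.22 with AP, and both AP values exceeded both vehicle values, as for Atf5. The log2 fold changes were 0.94 ± 0.59 for Atf4, 0.71 ± 0.42 for Atf5 and 1.61 ± 0.45 (SE) for Ddit3, with adjusted limma p values of 0.81, 0.80 and 0.80. Single mice moved them: the log2 fold change of Atf4 became 0.26 when vehicle replicate 2 was left out. Leaving out AP replicate 2 gave 0.45 for Atf4, 0.17 for Atf5 and 1.01 for Ddit3. Leaving out vehicle replicate 1 gave 1.62 for Atf4, and leaving out AP replicate 1 gave 1.43 for Atf4 and 1.25 for Atf5. Hsf1, the activator of heat shock genes, differed by 0.12, and by -0.04 in the log2 table of the authors. Ubl5, a ubiquitin-like cofactor of the same response in worms, was 5.79 and 5.76 with the vehicle and 5.34 and 5.34 with AP, both of the latter lower, with a log2 fold change of -0.43 ± 0.20 (SE) and an adjusted limma p of 0.80. Of these 5 genes, 1 (Ddit3) had an unadjusted limma p under 0.05, against 6.07% of all probes.

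The partner genes, 29 other genes of mitochondrial chaperone and protease systems, were all measured. None had a limma p under 0.05 before or after adjustment, against 6.07% and 0% of all probes. Log2 fold changes were above 0 for 12 and below 0 for 17, with a median of -0.04 (0.05 after scaling to the median of each array). Both AP-treated mice lay above both vehicle-treated mice for 3 of 29, against 18.0% of all probes, and below for 4 of 29, against 20.4%. The largest positive difference was that of Atp23, an inner membrane metallopeptidase, at -0.25 and -2.12 with the vehicle and -0.05 and -0.29 with AP. Only vehicle replicate 2 was low, and the log2 fold change of 1.02 ± 0.66 (SE) became 0.08 without it. Hscb, a cochaperone of iron-sulfur cluster assembly, followed at 0.41 ± 0.23, then the presequence peptidase Pitrm1 at 0.23 ± 0.21 and the rhomboid protease Parl at 0.22 ± 0.23 (SE). The largest negative differences were -0.34 ± 0.25 for Phb, a prohibitin of the ring that holds the m-AAA protease, -0.32 ± 0.21 for Lactb, -0.28 ± 0.20 for Pmpca, a subunit of the presequence-cleaving peptidase, and -0.26 ± 0.20 (SE) for Bcs1l, the AAA chaperone of complex III. For each of these genes both AP values were under both vehicle values. They are the same 4 partner genes counted above, and they were named for the size of the difference, so this is no further result.

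**Figure D3:**
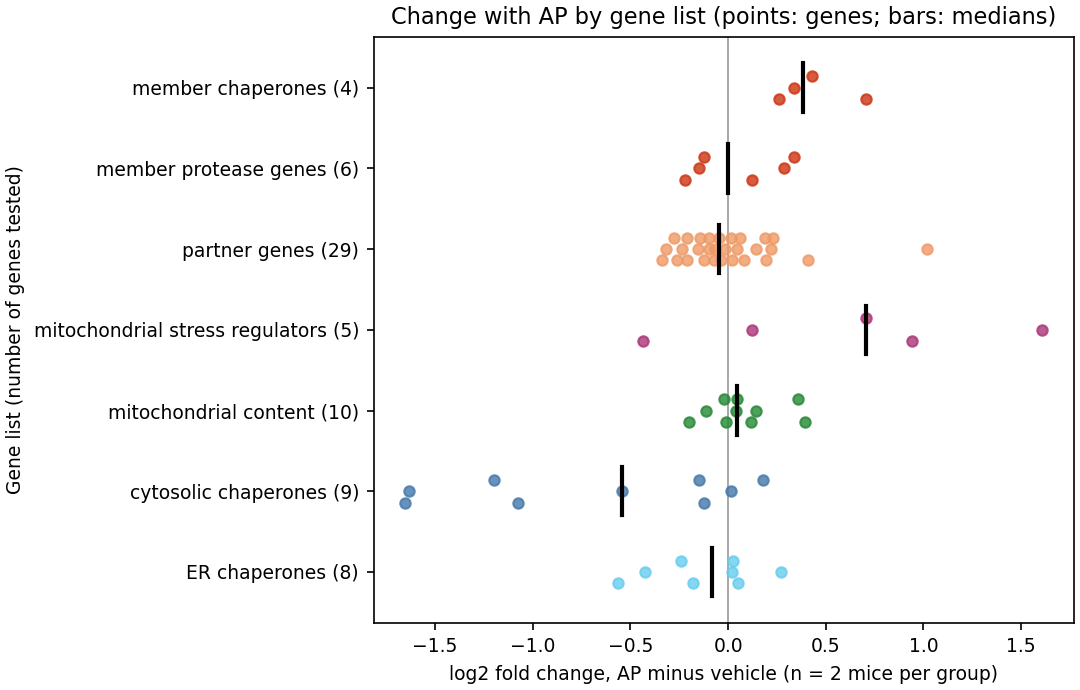
Log2 fold change with AP (x axis) of single genes, grouped by list (y axis, with the number of genes tested); black bars are medians. The 4 member chaperones lie above 0, and 7 of the 9 cytosolic chaperones lie below 0.

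Chaperones of other compartments are given beside the members. Of 9 cytosolic chaperone genes, 7 had log2 fold changes below 0, and the median was -0.54. In 4 of the 9 both AP-treated mice were below both vehicle-treated mice, against 20.4% of all probes. The lowest values were -1.65 ± 0.69 for Hsph1, -1.63 ± 1.44 for Hspa1a, -1.20 ± 0.44 for Dnaja1 and -1.07 ± 0.59 (SE) for Dnajb1, of which Dnaja1 had an unadjusted limma p of 0.046 and an adjusted p of 0.80. Vehicle replicate 1 was the highest mouse for 7 of the 9, and without it the median was 0.01. Dnajb1, a classical heat shock gene, was 6.18 and 4.49 with the vehicle and 4.30 and 4.21 with AP, whereas Hspd1 and Hspe1 were high in vehicle replicate 1 and in both AP-treated mice. Other genes of the list differed from Dnajb1. Vehicle replicate 2 was the lowest mouse for 3 of the 9 (Hsp90aa1, Tcp1 and Cct2), as for Hspd1 and Hspe1. Hsp90aa1 was 6.14 and 4.64 with the vehicle and 5.66 and 4.87 with AP. The value of Hspa1a is uncertain because Hspa1b is nearly identical. Of 8 ER chaperone genes, 4 were above and 4 below 0, with a median of -0.08 (0.01 after scaling to the median of each array). Calr, with a log2 fold change of -0.56 ± 0.20 (SE), was the only ER chaperone gene with an unadjusted limma p under 0.05 (0.044), against 6.07% of all probes. The median of 10 genes of mitochondrial content, such as Cs, Vdac1 and Tfam, was 0.04, and it was -0.12 in the log2 table of the authors and -0.02 with normexp background correction.

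Markers of cell types differed between the mice, and not only in vehicle replicate 2. In vehicle replicate 2 the members were lower than the mean of the other mice by a median log2 difference of -0.43 (-0.70 for the chaperones and -0.38 for the proteases), against -0.07 over all probes. The same difference was -0.21 for the partner genes, -0.22 for mitochondrial content, where this mouse was the lowest for 8 of 10 genes, and -0.46 for brown adipocyte markers. Of the latter, 5 of 8 were lowest in this mouse, but Dio2 (0.85) and Ppargc1a (0.34) were higher there than the mean of the other mice. For the 3 adipocyte markers the median was -0.35, with 2 lowest in this mouse and Adipoq (0.24) highest. The difference was 2.27 for skeletal muscle markers, of which 8 of 8 were highest in this mouse, and 1.68 for leukocyte markers, of which 7 of 8 were. For muscle, vehicle replicate 1, which is part of the mean of the other mice, was low. The mean of the AP-treated mice exceeded vehicle replicate 1 for 8 of 8 muscle markers, with a median difference of 2.99. Relative to vehicle replicate 2 that median was -1.27. The summed signal of the muscle markers, in multiples of the 75th percentile, was 32.0 and 572 with the vehicle and 382 and 199 with AP. That of the leukocyte markers was 47.3 and 111 with the vehicle and 42.6 and 43.4 with AP, and that of the members was 679 and 396 with the vehicle and 712 and 653 with AP. For the 3 erythroid markers the summed signal was 774 and 466 with the vehicle and 376 and 516 with AP. Each of them (Hba-a1, Hbb-bt and Alas2) was highest in vehicle replicate 1. The part of muscle, leukocyte or erythroid RNA in the differences of the members was not tested. In bulk tissue fewer brown adipocytes and less RNA per brown adipocyte cannot be told apart. Ucp1, the defining brown adipocyte gene, was high in all mice (10.41 and 9.66 with the vehicle, 9.66 and 10.25 with AP), and of 6 white adipose markers, 4 (Hoxc8, Hoxc9, Hoxc10 and Wt1) were not well above background in any. The other white adipose markers, Lep and Retn, were measured in every mouse. Lep was 0.04 and 1.45 with the vehicle and -0.63 and -0.63 with AP, highest in vehicle replicate 2, and Retn was 5.50 and 5.40 with the vehicle and 4.98 and 5.16 with AP. Their part in the differences of the members was not tested either.

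**Figure D4:**
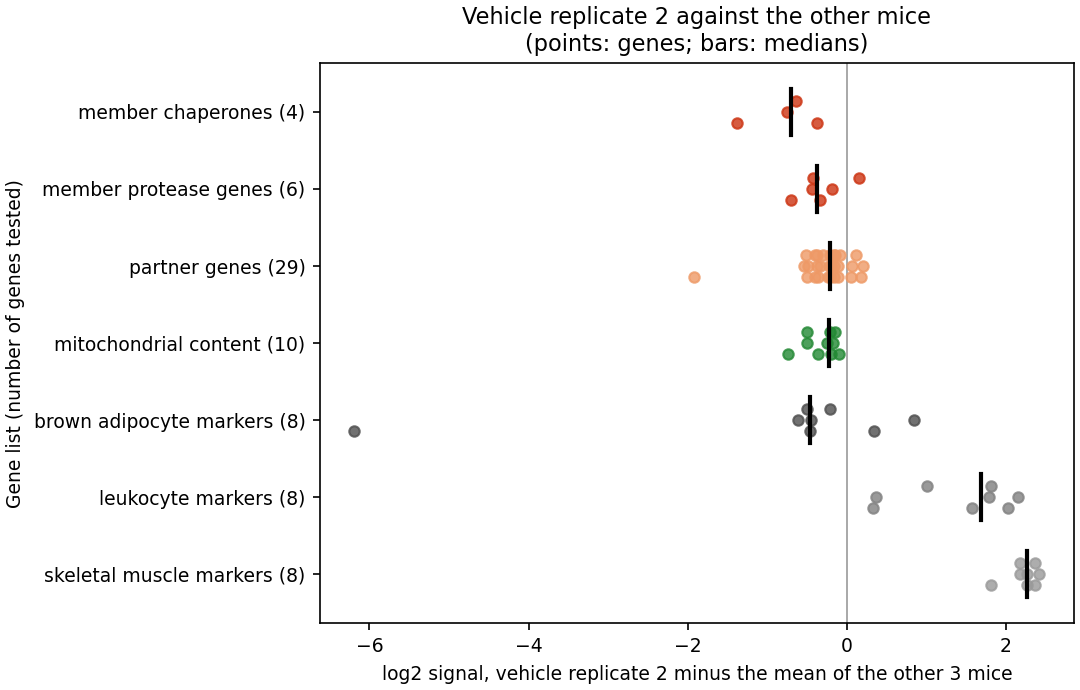
Difference in log2 signal of vehicle replicate 2 from the mean of the other mice (x axis) for single genes, grouped by list (y axis, with the number of genes tested); black bars are medians. The members and the genes of mitochondrial content lie mostly below 0, and the muscle and leukocyte markers lie above 0, with medians of 2.27 and 1.68. The point farthest to the left is Elovl3, a fatty acid elongase.

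Relative to the mean of the 10 genes of mitochondrial content in the same mouse, the median log2 fold change of the members was 0.20. This scaling was added after the values had been seen.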

How the data were processed

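BAT RNA of 4 Tg mice, 2 given AP and 2 given the vehicle, was hybridized to one-color Agilent arrays. Per the submitters' processing notes, the authors extracted the scans with Agilent Feature Extraction 10.7.1.1 and deposited, for each array, a background-subtracted intensity per spot that was not normalized between arrays. A log2 table of these arrays was deposited by the authors too, and its centring is not given in the sources used here. Of the spots, 46.4 to 49.0% were well above background and 0 were saturated. Precision is limited by the small number of arrays.

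Here, log2 of the processed intensity was averaged over spots of a probe, without control and outlier-flagged spots, and the 75th percentile of the array was subtracted. Of 55681 probes, 24972 passed the filter (both arrays of either group well above background). The groups were fitted with limma 3.58.1 (lmFit, then eBayes) under R 4.3.3, with Benjamini-Hochberg adjustment and a threshold of 0.05. The fit was tested on simulated data. The probes of 20145 genes were named by accession through a RefSeq table of GRCm38.p6, of which gene coordinates were not used, since the array names another build. The brightest probe stood for a gene.

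The text names all members, the regulators, Trib3, and the 4 largest positive and 4 largest negative differences among partner genes above background on every array. Members of the comparison lists were named after their values were seen. The members and all lists were chosen with earlier results of these data known. Alternatives were normexp with an offset of 50 (on the median spot signal, the one held here), quantile or median scaling, other filters on dim probes, a variance trend, the log2 table of the authors, a replicate block, the methods' t-test, averaging the probes of each gene, and leaving out each mouse. A block for slide and scan was planned but all arrays shared 1 slide and 1 scan. Position on the slide and treatment cannot be told apart. That the arrays are separate mice is stated by the study, not by the labels. Promoter windows were those of RefSeq.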

Additional observations from a re-analysis of the deposited data

How the results depend on the processing

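No member passed an adjusted p of 0.05 in the main comparison or in any of 16 alternatives, in which the smallest adjusted p of a member was 0.56. Of these alternatives, 6 cannot change a fold change. In the other 10, the direction of a member was kept in 91 of 100 values. These values are not separate checks. Averaging the probes of a gene could change only Hspe1. Median scaling, the table of the authors and scaling to mitochondrial content each shifted every member by the same amount. It reversed for Yme1l1 with normexp (0.035) and for Clpp in the log2 table of the authors (-0.039). With each mouse left out in turn, direction reversed for 6 members. Lowest to highest, Hspd1 ran from -0.058 to 0.73, Lonp1 from -0.016 to 0.69 and Clpp from -0.13 to 0.37, each lowest without vehicle replicate 2. Afg3l2 ran from -0.48 to 0.18 (0.08 without AP replicate 1) and Oma1 from -0.47 to 0.029, both highest without vehicle replicate 1, and Yme1l1 from -0.33 to 0.087, highest without AP replicate 2. The median log2 fold change of the members then ran from -0.037 without vehicle replicate 2 to 0.44 without vehicle replicate 1, and that of the partner genes from -0.26 without vehicle replicate 2 to 0.15 without vehicle replicate 1, and was 0.0015 without AP replicate 1. The partner median was 0.048 after scaling to the median of each array. The number of members at an unadjusted p under 0.05 ran from 0 to 1 with a mouse left out, the one being Hspe1 without vehicle replicate 1, where 8.72% of all probes were under 0.05. In such fits the lone mouse of a group is assumed to vary like the pair of the other group. The number of members with both AP values above both vehicle values was 4 after quantile normalization (18.4% of all probes) and 1 in the log2 table of the authors (10.3%). With a mouse left out, 1 value is set against 2, and the count ran from 2 to 8 (8 without vehicle replicate 1, against 39.1% of all probes, and 6 without AP replicate 2, against 31.3%). The count was 2 without vehicle replicate 2, against 29.1% of all probes, and 2 without AP replicate 1, against 33.4%. In the table of the authors the median of all probes shifted from -0.01 to -0.17 and that of the members to 0.11. The replicate block, for which the labels give no pairing (correlation of same-numbered mice -0.13), left 0 members and 0 probes called, and 1227 probes instead of 1515 at an unadjusted p under 0.05, and it changed no call. The crossed replicate block, added after the data were seen, called 0 probes, with 1567 before adjustment. The methods' t-test had 1478 probes under 0.05 before and 0 after adjustment. Causes were not tested, except that fewer mice were compared where one was left out.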
